A study of Mus musculus with 2 samples.

Results

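Prefix models are spliced transcript models whose introns match those of a longer transcript from the first onwards but not to the last. They keep its 5′ end, and most lack its 3′ end. The longer transcript was annotated for 1192 members and an unannotated model for the other 62. A model belonged here if the deposited class named it an incomplete match of the prefix kind in each library, if it had 2 exons or more and if it had at least 5 reads in each library. Chromosome, strand and intron chain matched the models of the libraries. This rule found 1254 models, in 854 genes, among 162512 spliced intron chains seen in either library and 13665 chains with 5 reads in each. The members were chosen by their read counts and deposited class, so their abundance and their presence in each library are descriptions.

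The RNA came from layer of hippocampus of adult mice, strain B6NCrl of the C57BL/6 background, 6 months old and described as male. There was 1 group of 2 libraries of long reads, replicate 1 with 1330153 reads and replicate 2 with 1366252, and no treatment, genotype or control group is labelled. The libraries have separate biosamples and share a donor identifier, so the spread between them may be technical. Markers of the hippocampal fields were present, with 301 and 371 reads for C1ql2 and 103 and 144 for Wfs1. Choroid plexus genes, from tissue that adjoins the hippocampus, summed to 14228 CPM (reads per 1000000) in replicate 1 and 393 in replicate 2, and no member lay in any of them.

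The 3′ end of a messenger RNA is formed by cleavage downstream of a poly(A) signal, most often AATAAA or ATTAAA, and addition of an adenosine tail. Many genes have further signals in introns or upstream exons, whose use gives shorter transcripts and truncated proteins. Long-read libraries are commonly primed with oligo(dT), which anneals to the tail and is known to anneal also to adenine-rich stretches inside transcripts. How these libraries were primed is not given in the sources used here, and the part of such priming in the ends below was not tested.

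The exons in which the leading prefix models stop are best seen in their bases. Each line below gives up to 60 bases of the coding sequence around the 20 bases richest in adenine of the model's last exon, 5′ to 3′ on the gene's strand, with those 20 bases in capitals. The bases come from the GENCODE M21 transcripts on mm10.

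Hsp90ab1: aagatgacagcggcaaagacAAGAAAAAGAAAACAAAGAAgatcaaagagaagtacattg
Hsp90aa1: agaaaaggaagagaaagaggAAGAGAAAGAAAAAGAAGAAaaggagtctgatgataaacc
Hsp90b1: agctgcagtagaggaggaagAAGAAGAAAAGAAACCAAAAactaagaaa
Kif5c: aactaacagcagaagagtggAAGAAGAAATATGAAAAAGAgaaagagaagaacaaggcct
Kif5a: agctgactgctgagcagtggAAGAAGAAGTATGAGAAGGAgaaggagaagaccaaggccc
Map1b: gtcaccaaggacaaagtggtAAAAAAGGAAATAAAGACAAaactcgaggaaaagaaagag
Map1a: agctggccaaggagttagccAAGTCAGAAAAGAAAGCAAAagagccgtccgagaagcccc
Eif5: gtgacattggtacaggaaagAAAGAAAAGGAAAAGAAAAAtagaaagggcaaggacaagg
Son: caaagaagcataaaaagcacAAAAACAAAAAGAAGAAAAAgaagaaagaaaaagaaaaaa
Kifap3: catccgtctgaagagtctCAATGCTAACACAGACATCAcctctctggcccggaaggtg

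The Hsp90ab1 stretch (chr17:45570383-45570442, minus strand, exon 6) held 16 adenines in 20 bases, and the model ended 23 bases before it. In Hsp90aa1 (chr12:110694240-110694299, minus strand, exon 5) it held 15 and in Hsp90b1 (chr10:86698319-86698367, minus strand, exon 7) also 15. Kif5c (chr2:49710758-49710817, plus strand) had 14 and Kif5a (chr10:127242709-127242768, minus strand) had 11, each in exon 11. Map1b (chr13:99434259-99434318, minus strand, exon 5) had 15 and Map1a (chr2:121300470-121300529, plus strand, exon 4) had 13. Eif5 (chr12:111541712-111541771, plus strand, exon 7) had 16, with the model's end 5 bases before it, and Son (chr16:91654689-91654748, plus strand, exon 3) had 17, with the end inside it. Kifap3 (chr1:163793949-163794006, plus strand, exon 3) is shown as an exception, with 9. In the genes without a distance above, the stretch began upstream of the model's end. Counted from the end, its start lay at -351 bases in Map1b, -177 in Map1a, -136 in Kifap3 and -104 in Hsp90aa1. It lay at -90 in Kif5c and Kif5a and at -28 in Hsp90b1. In Kif5c, Kif5a, Hsp90b1 and Kifap3 the deposited end is the last base of an annotated exon, so the distance is that to the exon's end. In Hsp90ab1, Hsp90aa1, Map1b and Eif5 it is the 3′ end of another annotated transcript. The ends in Son and Map1a differed between the libraries, and that of the library with more reads was used. Of 124 members with a last exon on hand and an end on no annotated position, 41 ended near the start of the densest stretch. Near means from 30 bases before that start to 40 after it. The median last exon of these 124 members was 334 bases long. How many ends would lie near by position alone was not computed, so no conclusion is drawn from the 41.

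Adenine-rich stretches were common in the last exons of prefix models and less common in the exons around them. Of the 1127 internal exons of annotated transcripts in which a member stopped, 812 (72.0%) held a stretch with 12 or more adenines in 20 bases. Of 12580 other internal exons of the same genes, 2525 (20.1%) held one. Among exons of 100 to 200 bases, which have similar lengths, the shares were 75.7% of 593 and 19.3% of 6772. The median of the densest 20 bases was 13 adenines in the last exons and 10 in the others. These exons share genes and transcripts, so the shares are given as a description without a test.

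**Figure D1:**
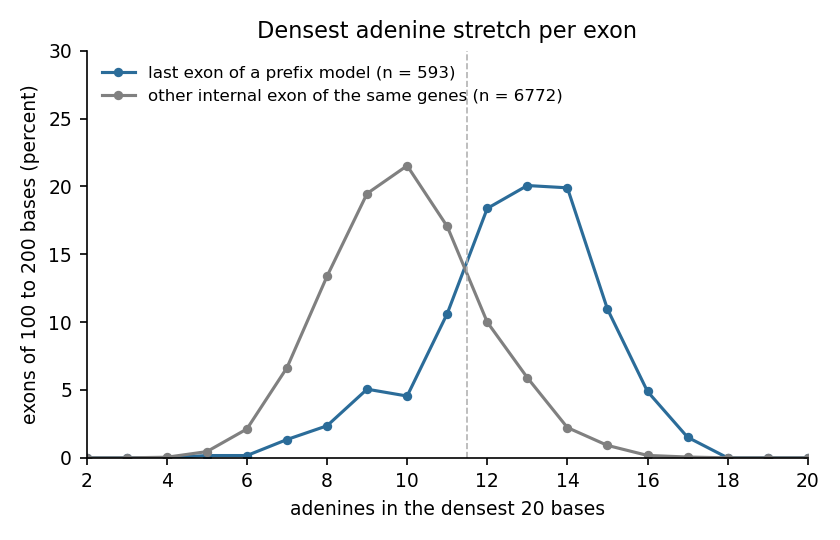
Percentage of internal exons of 100 to 200 bases (vertical axis) by the number of adenines in their densest 20 bases (horizontal axis), for the last exons of prefix models (blue) and the other internal exons of the same genes (grey); the dashed line marks the limit of 12 adenines. The blue curve lies to the right of the grey one, with medians of 13 and 10 adenines.

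The same contrast appeared within transcripts, exon by exon. In the exon just before the last exon of the model, 26.6% of 1031 internal exons held such a stretch. Further upstream the share was 22.5% of 919 exons and 21.1% of 795. In the exon just after the last one it was 45.6% of 972, and then 26.8% of 866 and 25.9% of 762. The exon after the last one therefore stood between the last exon and the rest, and its share was 38.3% of 815 with exons left out in which another member stopped.

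**Figure D2:**
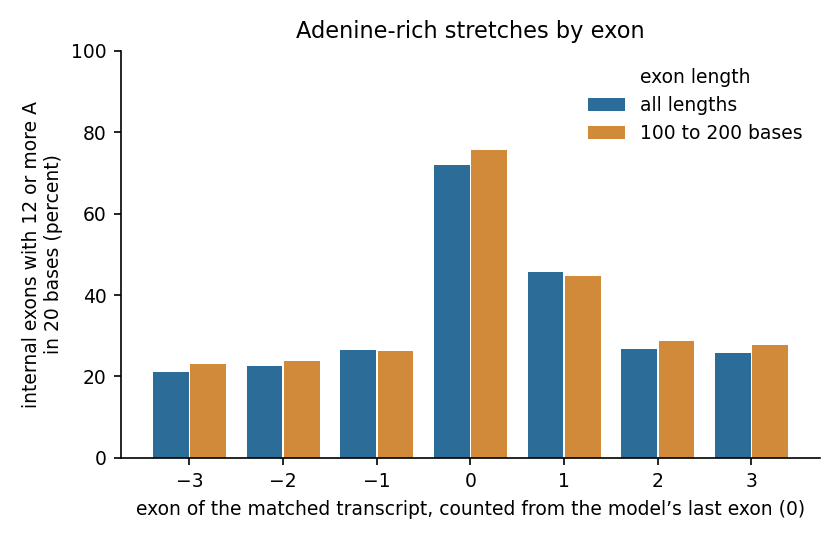
Percentage of internal exons with 12 or more adenines in 20 bases (vertical axis) by position in the matched annotated transcript, counted from the last exon of the prefix model at 0 (horizontal axis), for all exons (blue) and exons of 100 to 200 bases (orange). Position 0 is highest at 72.0%, position 1 follows at 45.6%, and the other positions lie between 21.1% and 26.8% for all exons.

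Members with denser adenine stretches also took a larger part of their gene's reads. Among members whose last exon had at most 9 adenines in its densest 20 bases, the median share of the gene's reads was 9.09% (111 members). It was 7.79% at 10 or 11 adenines (207 members), 11.2% at 12 or 13 (383 members) and 19.5% at 14 or 15 (358 members). With 16 or more it was 29.0% (81 members), and 24 of those 81 took 50% or more of the gene. The order of the upper groups was the same in each library, with medians of 28.6% and 29.8% in the highest group, against 20.3% and 18.6% in the group below it. Exon length differed little among these upper groups, with medians of 146, 154.5 and 150 bases.

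The deposited 3′ ends mostly stood exactly on annotated coordinates. The end was the last base of an annotated exon, where an intron begins, in 770 members (61.4%), which held 51.2% of the members' reads. In 355 members (28.3%) it was the 3′ end of another annotated transcript, and these held 38.3% of the reads; 371 members ended within 50 bases of one. The other 129 (10.3%) ended at neither. The end of a model is thus a coordinate of the model, and how it was set from the ends of single reads is not given in the sources used here. Of the 129 at neither, 67 lay more than 300 bases from any annotated exon end.

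**Figure D3:**
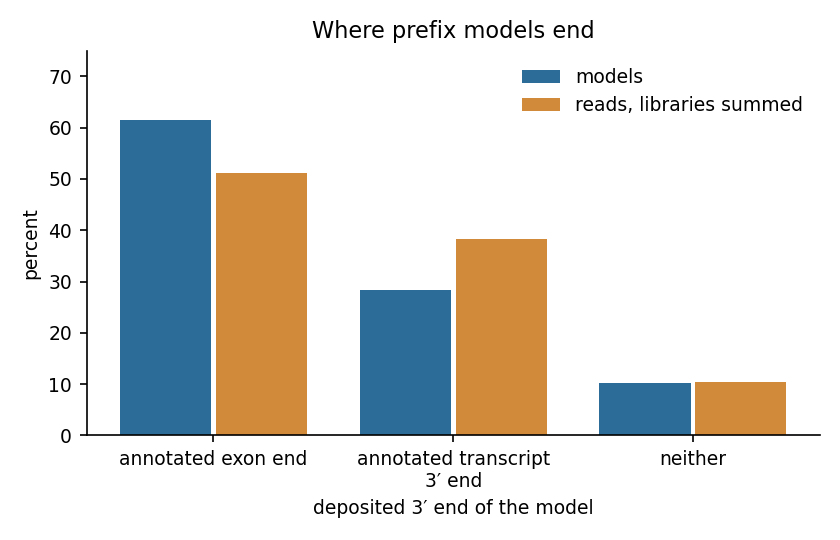
Percentage of the 1254 prefix models (blue) and of their reads in the libraries summed (orange) by where the deposited 3′ end lies (horizontal axis). Annotated exon ends hold 61.4% of models, annotated transcript 3′ ends 28.3% and other positions 10.3%.

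Most members kept a large 5′ part of the coding sequence and ended inside it. Of 1192 members that continue into an annotated transcript, 1090 (91.4%) ended in a coding exon, 51 in an intron, 28 in a 3′ UTR, 13 in a noncoding exon and 10 in a 5′ UTR. Starts fitted the label of a 5′ match: 764 members began exactly at the annotated start and 1002 within 50 bases of it. The median member held 6 introns and 52.7% of the coding sequence (1178 with a coding counterpart, quartiles 31.3% and 74.8%). Where several annotated transcripts matched, the highest of their coding shares was taken. An end was then counted in a coding exon if any of them placed it there. The median model was 1109 bases long, against 2209 for the 8366 annotated models with 5 reads in each library.

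Annotated transcripts that ended where a member ended were seldom complete coding transcripts. Of the 355 such ends, 31 belonged to a complete coding transcript, 112 to a coding transcript that the annotation marks as lacking its 3′ end, and 212 only to transcripts of other types. Retained-intron transcripts made up 93 of these, processed transcripts 72 and nonsense-mediated decay transcripts 45. The bases after the end were on hand, from overlapping annotated exons, for 270 of the 355, and 112 of them (41.5%) had 12 or more adenines in the next 20. That share was 0 of 10 at complete coding transcripts, 40 of 96 at coding transcripts without a 3′ end and 72 of 164 at the other types. A poly(A) signal lay in the last 50 bases in 23 of 30 at complete coding transcripts, 8 of 109 at those without a 3′ end and 15 of 210 at the other types.

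Over all members, the 20 bases after the end and the 50 bases before it were read beside those of the other classes. With the bases on hand for 456 members, 140 (30.7%) had 12 or more adenines in the 20 bases after the end, against 142 of 2057 annotated models (6.90%) and 198 of 871 suffix models (22.7%). Suffix models match the 3′ part of a transcript. Over 6070827 exon positions of the members' genes, 1.66% were followed by such a stretch. At the 770 exon ends the next bases were on hand for 80, since introns are mostly not covered, and 2 of them had 12 or more adenines. Of the 106 ends at neither with bases on hand, 26 (24.5%) did.

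A hexamer AATAAA or ATTAAA, read on the gene's strand, lay in the last 50 bases of 125 of 1227 members (10.2%). It lay there in 75.6% of 8362 annotated models and in 76.4% of 2388 suffix models. Of all 50-base exon windows in the members' genes, 5.43% held one. The prefix models lay between the exon windows and the annotated models. The ends of the classes stood on unlike coordinates, however. An annotated transcript 3′ end was the end of 8365 of the 8366 annotated models, of 87.8% of suffix models and of 28.3% of prefix models. The shares of hexamers, and of adenines after the end above, therefore describe deposited coordinates and are not of like ends. No hexamer in this window says only that these letters are not there.

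**Figure D4:**
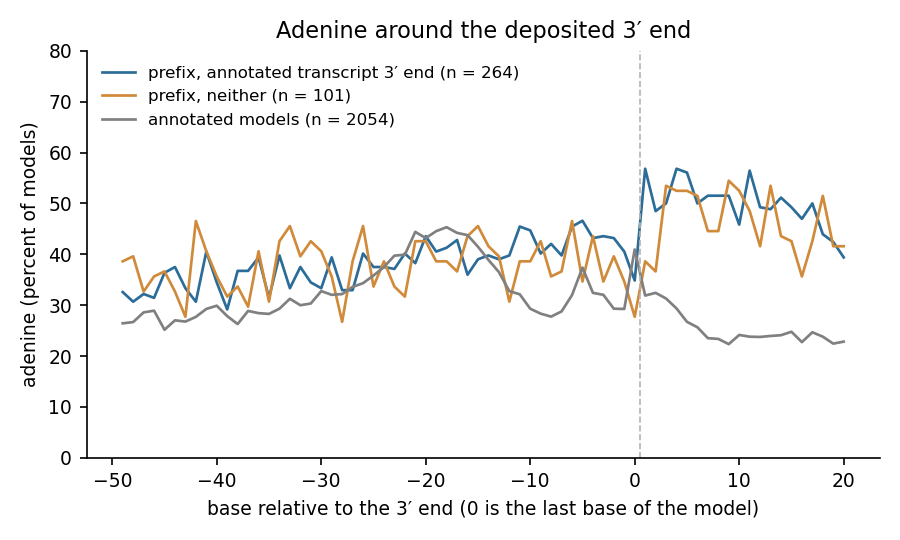
Percentage of models with adenine at each base (vertical axis) from 49 bases before to 20 bases after the last base of the model (horizontal axis), for prefix models at an annotated transcript 3′ end (blue, n = 264), prefix models at neither (orange) and annotated models (grey, n = 2054), all bases on hand. Over the first 10 bases after the end the means are 51.9%, 48.1% and 27.1%, and the grey curve has its peak, 45.3%, at 18 bases before the end.

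Hsp90 genes, which encode abundant chaperones that fold kinases and receptors, held the most reads on prefix models. Hsp90ab1, the constitutive cytosolic form, had 2584 reads in replicate 1 and 2947 in replicate 2 on a model of 6 exons that ended at chr17:45570445. These were 71.6% and 68.7% of the reads of the gene. The complete annotated transcripts that begin the same way had 280 and 551 reads. The model contained 35.5% of the coding sequence.

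The leading models of its paralogs stopped in a similar part of the coding sequence. Hsp90aa1, the stress-inducible form, had 185 and 205 reads on a model of 5 exons with 37.8% of the coding sequence, 25.5% and 26.9% of the gene. Hsp90b1, the form of the endoplasmic reticulum, had 263 and 215 reads on a model of 7 exons with 40.5% of the coding sequence, 59.5% and 55.1% of the gene. For each of these leading models the shares in the libraries differed by less than 5 percentage points. Further models with fewer reads stopped elsewhere. Among them were models with 27.5% and 75.2% of the coding sequence in Hsp90aa1 and with 29.8%, 55.5% and 72.3% in Hsp90ab1.

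Kinesin-1 heavy chains, which carry cargo along microtubules in axons, had a prefix model that stopped in exon 11 in each of the 3 paralogs. It was the prefix model with most reads in Kif5c and Kif5b, and in Kif5a it led in replicate 1 alone. Kif5c had 805 and 958 reads on this model, 77.3% and 79.8% of the gene, against 11 and 4 reads on its complete transcripts. Kif5b had 507 and 534 reads, 63.5% and 65.3% of the gene. Kif5a had 46 and 25 reads on it, 13.3% and 7.51% of the gene, or 28.6% and 18.2% without unspliced genomic reads. A prefix model of Kif5a that stopped in exon 19 had 42 and 32 reads, slightly more over both libraries (74 against 71). A further one stopped in exon 20, with 5 and 11. Exon 11 was 149 bases long in each gene, and its densest 20 bases held 14 adenines in Kif5c, 16 in Kif5b and 11 in Kif5a. The order of the shares was not that of the adenines. Kifap3, the adaptor of kinesin-2, had 183 and 260 reads on a model of 3 exons, 61.6% and 67.4% of the gene.

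Prefix models of Map1b and Map1a, large microtubule-associated proteins of axons and dendrites, stopped inside a very long exon. Map1b had 1064 and 1503 reads on a model of 5 exons that ended in an exon of 6490 bases, and its complete transcripts had 1 read and 0 reads. Map1a had 244 and 268 reads on a model of 4 exons that ended in an exon of 8104 bases and took 46.6% and 48.7% of the gene. No read lay on its complete transcripts in either library. Map2, the dendritic protein, had 33 and 29 reads on a model of 7 exons that ended in an exon of 3741 bases, and 41 and 17 on a model of 8 exons that ended in an exon of 207 bases.

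The remaining members with most reads described here belonged to calcium transport, secretion and translation. Atp2b1, a calcium pump of the plasma membrane, had 217 and 283 reads, 14.9% and 17.6% of the gene. Sparcl1, a matricellular protein of astrocytes, had 233 and 230, 12.7% and 9.59%. Sec62, part of the translocation machinery of the endoplasmic reticulum, had 244 and 205, 81.6% and 76.5%. Eif5, a translation initiation factor, had 196 and 251, 54.7% and 55.5%. In Sec62 and Eif5 most reads of the gene were thus on the prefix model, and in Atp2b1 and Sparcl1 most were not.

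Among members in genes with 20 reads or more in each library, the median share of the gene's reads was 13.7% (1203 members), 13.6% in replicate 1 and 13.3% in replicate 2. The quartiles were 5.56% and 25.7%, and 80 members took 50% or more. Rexo1, an RNA exonuclease homolog, was highest with 88 reads in each library, 91.7% and 93.6% of the gene, on a model of 2 exons. The others of the 10 highest, beside Sec62 and Kif5c, were Fam120aos, Rsbn1, Fam98b of the tRNA ligase complex, Mphosph8, a reader of histone methylation, Las1l, which acts in ribosomal RNA processing, Wasl, an activator of actin nucleation, and Cbx1, a heterochromatin protein. Wasl, for example, had 177 and 217 reads on the prefix model and no read on the complete transcripts it would continue into.

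Prefix models outnumbered the complete transcripts more often where the length assigned to those was long. Of 1192 members with an annotated counterpart, 668 (56.0%) had more reads than it, and for 251 the counterpart had no read. Where several annotated transcripts matched, their reads were summed. By length of the counterpart, the 1142 members in genes with 20 reads or more in each library were compared. That length was taken from the matched transcript with most reads, and from the longest where reads were equal. Members whose counterparts had no read were thus given the longest one, which can place them in a longer group. Where it was under 2000 bases, 23.4% of 175 members had more reads than it. The share was 41.6% of 425 at 2000 to 4000 bases, 72.3% of 448 at 4000 to 8000 and 80.9% of 94 above. The median length of the prefix models rose less, from 706 to 1493.5 bases.

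**Figure D5:**
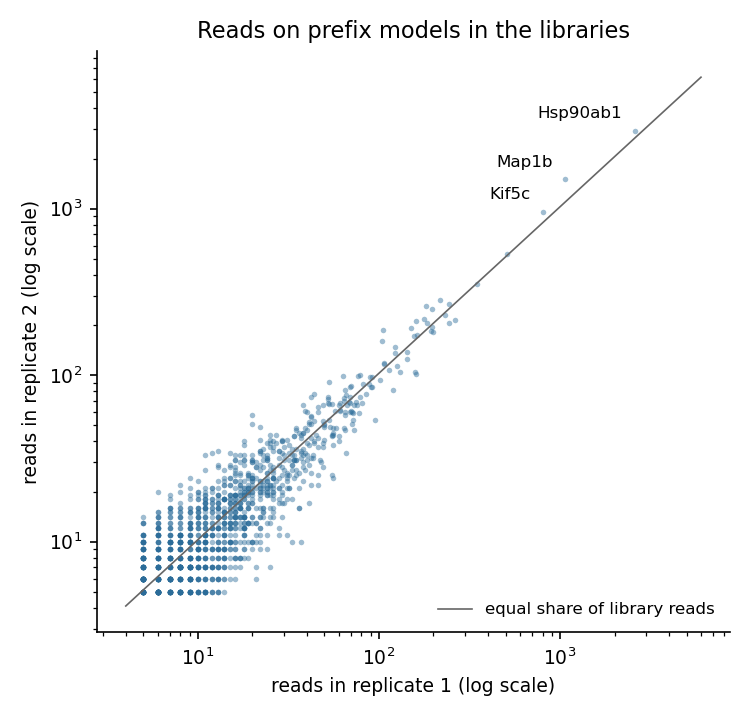
Reads of each of the 1254 prefix models in replicate 1 (horizontal axis, log scale) and replicate 2 (vertical axis, log scale), 1 point per model; the line marks an equal share of the library's reads. Hsp90ab1 is highest with 2584 and 2947 reads, and most points lie near the line.

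A smaller group ran past the exon, beyond the start of the next annotated intron. There were 84 such members, by a median of 476.5 bases, with 3225 reads, and 64 of them ended at an annotated transcript 3′ end. The hexamer was found in 27 of the 64 with bases on hand (42.2%), against 90 of 1104 other members with a counterpart (8.15%). Of those with a hexamer Cryzl1 had most reads, 64 and 73, which were 27.8% and 29.3% of the gene, with 24 bases from hexamer to end. The models of Cryzl1, Rasl10a, Mlf2, Ckb and 1 of Araf ended in the 3′ UTR of a counterpart. They left 0 of its exon bases after the end, so these ends were not early ones. The 42.2% includes hexamers at such ends. Windows of 30 bases with the hexamer in capitals show 5 others of the 10 with most reads.

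Rasl10a: aggtAATAAAaacaaatgcaaaaactgtaa
Araf: cattatgatatgtAATAAAaagtcatatct
Bcan: ataaatctgtATTAAActgctttgtaccca
Caprin1: cactcAATAAAtacttgttgaatgaatgaa
Phf20l1: aagatgaacAATAAAattgtttatttacaa

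Rasl10a, a small GTPase of the Ras family (chr11:5060350-5060379, plus strand), had 55 and 67 reads on a model of 2 exons, with 32 bases from the first base of the hexamer to the end, 27.4% and 29.5% of the gene. Araf, a kinase of the Raf family (chrX:20852860-20852889, plus strand), had 37 and 44 reads on its leading such model, with 17 bases from hexamer to end, inside an intron of the counterpart. That model held 53.1% of the coding sequence and 14.5% and 13.8% of the gene. Bcan, the brain proteoglycan brevican (chr3:87992514-87992543, minus strand), had 22 and 41 reads, with 20 bases from hexamer to end. Caprin1, an RNA-binding protein of stress granules (chr2:103767107-103767136, minus strand), had 12 and 21. Phf20l1 (chr15:66611587-66611616, plus strand) had 29 and 25. Each of these models ended at an annotated transcript 3′ end in the library with more reads. In Phf20l1 that was replicate 1, and the window shown belongs to it. The model of replicate 2 ended elsewhere, at chr15:66609970. The other 4 had the same end in each library.

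The same 3′ end in each library was mostly given by the annotation. Where the end stood on no annotated position in either library (107 members), it was identical in 57, within 10 bases in 69 and within 50 bases in 76, and more than 100 bases apart in 25. The ends of these members were therefore alike in most but not all.

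Prefix models were counted over lists of genes by function and cell type, beside all genes. Of 7092 annotated genes with 20 reads or more in each library, 803 (11.3%) had a member, and of 2293 with 100 reads or more, 365 (15.9%). Chaperone genes had one in 14 of 20, among them Hspd1 with 72 and 59 reads and Canx, calnexin, with 159 and 104. Genes of the cytoskeleton and motors had one in 11 of 31, and RNA-binding and splicing genes in 10 of 34. Presynaptic genes had one in 4 of 22, among them Syt1, the calcium sensor of vesicle release, with 107 and 118 reads on the leading model. Postsynaptic genes had one in 3 of 18, ribosomal proteins in 4 of 20, astrocyte genes in 2 of 14, myelin genes in 2 of 13, respiratory chain genes in 2 of 22 and glycolysis genes in 1 of 15. None was seen in the 12 microglial, 5 endothelial or 3 choroid plexus genes with enough reads. These lists are small and their genes differ in reads and length, so the counts are a description.

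Genes on a list for cleavage and polyadenylation, the steps that make 3′ ends, were low but present. The list also holds genes outside that machinery, namely Snrpa, Snrnp70 and Snrpc of the U1 snRNP and the kinase Cdk12. All 24 of the list had 10 reads or more over the libraries, from Snrpa with 173 and 186 down to Cpsf4 with 13 and 5. None passed the two-sided Fisher's exact test between the libraries after Benjamini-Hochberg adjustment, beside a background of 17% of 13186 genes, and 2 had an unadjusted p under 0.05. Papola, the poly(A) polymerase, and Wdr33, which binds the poly(A) signal, had a member of their own, with 8 and 6 and with 14 and 11 reads.

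Prefix models took nearly the same part of each library. Over all their models they held 3.58% of reads in replicate 1 (95% exact Clopper-Pearson interval 3.55 to 3.61) and 3.58% in replicate 2 (3.55 to 3.61), and the 1254 members held 2.37% and 2.41%. Intervals cover counting error only. Of the members, 185 had exactly 5 reads in the lower library, and 247 further prefix models had 4 there and stayed out.

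By Fisher's exact test of a model's reads against the rest of each library, 18 of the 1254 members (1.44%) differed at an adjusted p of 0.05, 10 higher in replicate 1 and 8 in replicate 2. The background was 3.02% of 16015 spliced chains. With TMM library sizes the 17 called members split 14 to 3, beside a background of 2.42% of the chains (214 to 174). By edgeR's exact test with a dispersion of the group 0 members were called, with 33 at an unadjusted p under 0.05, and the background was 0.175%. That dispersion came from the same 2 libraries taken as 1 group. It therefore holds the difference under test, and no conclusion is drawn from the 0. In their share of the gene's reads, 10 of 1203 members differed (Fisher's exact test, 0.831%), beside a background of 0.845% of 14197 chains. These tests compare the 2 libraries, not conditions. Members needed 5 reads in each library, whereas background chains needed any read in each and 10 over both. Chains with few reads in 1 library could thus enter the background but not the members, so the percentages are not of like sets.

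Of the 10, Map1b had the lowest adjusted p by Fisher's exact test (8.88e-35), with 44.3% of the gene in replicate 1 and 63.0% in replicate 2. Without unspliced genomic reads its shares were 88.4% and 96.2%, still apart. Higher shares in replicate 1 were found for Chgb, chromogranin B (21.6% against 14.6%), Gria2, an AMPA receptor subunit (13.01% against 7.12%), Hp1bp3, a chromatin protein (28.7% against 13.4%), Fubp1, a DNA-binding regulator (28.4% against 6.48%), and the Hsp90ab1 model of 5 exons (1.02% against 0.233%). Higher shares in replicate 2 were found for Eif3a, a translation initiation factor (10.4% against 24.1%), Srp72 of the signal recognition particle (20.0% against 53.1%), Cep57, a centrosomal protein, and Actb, beta-actin. Cep57 (16.7% against 69.0%) and Actb (0.118% against 0.620%) did not pass without genomic reads, where their adjusted p by Fisher's exact test was 0.902 and 0.460.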

How the data were processed

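Long-read RNA-seq of 2 hippocampus libraries was analysed. The deposited tables hold raw counts of reads per transcript model, made by the authors with TALON per the file headers, on mm10 with GENCODE M21 per the deposited description files. For the aligner, versions, filters and priming nothing was stated. The members and lists were chosen with earlier results of these data known. Models were matched by chromosome, strand and intron chain; the end of a member was that of the library with more reads. An end shared with annotated transcripts of several noncoding types was counted under the first in alphabetical order. A gene's reads are the sum over all its models. Bases were read only where GENCODE M21 exons cover them, since no genome sequence was used here. Windows were 20 bases (12 adenines or more) and 50 bases (hexamer).

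Two-sided Fisher's exact tests (scipy 1.17.1) with Benjamini-Hochberg adjustment covered chains seen in each library, with 10 reads over both (for shares, genes with 20 in each). edgeR 4.0.16 and DESeq2 1.42.0 gave TMM sizes, size factors and an exact test with the common dispersion of the group. A single read was worth 0.752 and 0.732 CPM. The tests were tested on simulated data. The counts drawn for Fisher's test held counting error alone, so they do not check its false calls under further spread between libraries. Named members were the 12 with most reads, the 10 with the highest share of their gene, the 10 with most reads ending past the next donor with a hexamer, the 5 with most reads and 12 adenines after the end, and up to 5 in each direction by adjusted p of the share. Of these, 1 member and 2 sequences are not reported here. Other members are named as paralogs or list members.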

Additional observations from a re-analysis of the deposited data

How the results depend on the processing

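With a minimum of 3 or 10 reads in each library there were 1896 or 667 members; 902 lay in genes that overlap no other on the strand. Another 52 chains with 5 reads in each library were of the prefix kind in 1 library alone. Without a filter on low counts 9 members differed between the libraries. By edgeR's exact test 0 did, with a dispersion that holds the difference under test. TMM moved the log2 ratio of replicate 1 to replicate 2 by 0.12. The median share of the gene was 16.2% over spliced reads alone, and 13.3% to 13.6% with either library left out. AATAAA alone was found in 80 members. Adenine-rich bases after the end were found in 70 members with 14 adenines required, 62 with 6 in a row and 26 counting only ends on no annotated position. The last exon held 14 adenines in 20 for 468 of 1190 members, 10 for 1072, and 12 for 472 in exons of 100 to 200 bases, where fewer exons are counted. The alternatives on last exons and on ends at no annotated position were chosen after seeing the data. No paired analysis was possible because there is 1 group. Members with 5 to 10 reads in each library limit the precision of single shares.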
